A study of Gallus gallus with 5 samples.

Results

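The comparison described here is between 2 pools of flight feather follicles labelled wild type, regenerating in the wing of the chicken, library 2 against library 1. They are 2 of the 5 libraries of the study, and the rule took every gene with a mean of at least 1 FPKM (fragments per transcript length, scaled to the mapped fragments of the library) over the 5 libraries, which left 11031 of 17108 genes. Follicles were plucked to make them regrow, RNA was taken from 5 pooled follicles per library, and both wild-type libraries carry the unexplained tag T4 in their titles. The other libraries are single: 1 labelled Wnt5a overexpression, called the Wnt5a-labelled library here, 1 with knockdown of the long non-coding RNA lnc7831 and 1 with knockdown of lnc3500. All 3 were made with lentiviral vectors and are called the treated libraries. No label gives the age, sex or strain of the birds, says whether the wild-type pools came from separate birds or days, or says whether the wild-type follicles received an empty vector.

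A feather follicle is a tube of epidermis around a mesenchymal core. At its base the dermal papilla signals to the overlying epidermal collar, whose basal keratinocytes divide and feed the barb ridges, where cells fill with feather beta keratins and die. A vascular pulp fills the growing feather, and leukocytes enter the follicle through it. Genes of the WNT, Notch, Hedgehog, BMP, FGF and retinoic acid pathways are known for patterning the collar and the barb ridges.

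To put the libraries on one scale, a geometric mean over all 5 was taken for each gene, every column was divided by its median ratio to that mean, and the result is called centred FPKM. The divisors were 0.751 for library 1 and 0.784 for library 2. A difference is log2(centred FPKM + 1) of library 2 minus that of library 1, so that positive values are higher in library 2, and this scale understates the fold of low genes. Where a pair of levels is given for a gene, both are centred FPKM and that of library 1 comes first. Genes past a difference of 1 in either direction are called at least 2-fold apart. With 1 library on each side there is no test, no error and no p-value for any difference below, which describes these libraries alone. A level in pooled tissue holds both the number of cells of a type and the RNA per cell, and these cannot be told apart.

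Over the 11031 genes, 929 were at least 2-fold higher in library 2, which is 8.42% of them, and 402 were at least 2-fold lower, which is 3.64%. Together they make 12.1%. The median difference of all genes was 0.01 and the median absolute difference was 0.36, with 50.5% of genes above 0 and 49.3% below. Of the genes at least 2-fold apart, 69.8% were higher in library 2. When each library was instead scaled to its FPKM sum, the median of all genes moved to 0.24, the counts became 1464 higher and 265 lower, and the share that was higher became 84.7%. The differences below are therefore relative to the median gene. The share at least 2-fold apart was 14.6% among genes with a mean of 1 to 3 FPKM, 10.1% from 3 to 10 and 17.2% at 100 or more, so the differing genes were not only the weakly expressed ones.

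Library 1 stood apart from the other libraries. The wild-type libraries differed at 2-fold in 1331 genes, while library 2 differed from the Wnt5a-labelled library in 922 genes, from the lnc7831 knockdown in 827 and from the lnc3500 knockdown in 797. Library 1 differed from the same treated libraries in 1499, 1355 and 1484 genes. The closest pair was the Wnt5a-labelled library with the lnc3500 knockdown, with 192 genes. Of the 929 genes higher in library 2, the treated libraries were nearer to library 2 than to library 1 in 677 for the Wnt5a-labelled library and in 674 and 689 for the knockdowns of lnc7831 and lnc3500. Of the 402 lower genes they were nearer to library 2 in 242, 195 and 236. These pairs share libraries, and every library also entered the centring.

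**Figure D1:**
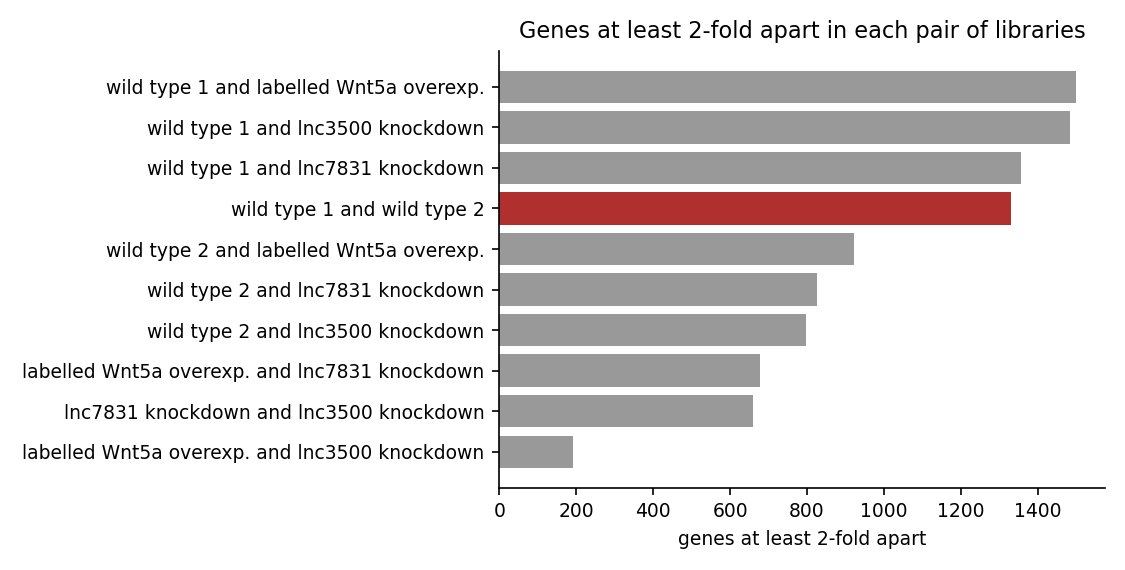
Number of genes at least 2-fold apart on the centred scale (horizontal axis) in each of the 10 pairs of libraries (bars), with the wild-type pair in red. The wild-type pair, at 1331 genes, exceeds each pair of library 2 with a treated library (797 to 922 genes).

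The libraries also differed in ways that are not tied to a cell type. The FPKM summed to 986272 in library 1 and 860352 in library 2, and the 10 highest genes held 48.2% and 42.6% of these sums. The depth behind these FPKM is unknown. Among 331 genes below 0.2 FPKM in both libraries, 76.7% had ratios that matched, within 2%, a common step of 1.13 times a simple fraction. Such a fraction is 1 whole number over another, each up to 4. The step was fitted to these same ratios, and the share that would match without a common step was not measured. Read as single fragments, this step makes a fragment worth 1.13 times as much in library 2 as in library 1. The actin gene ACTB lay at 3434 centred FPKM in library 1 and 3308 in library 2, and GAPDH, a glycolytic enzyme, at 2850.3 and 1872, differences of -0.05 and -0.61. WNT5A, the ligand that one treated group was meant to overexpress, lay at 39.5 and 82.00 in the wild-type libraries and at 64.99 in the Wnt5a-labelled library, between them. Values for lnc7831 and lnc3500 were not analysed here.

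**Figure D2:**
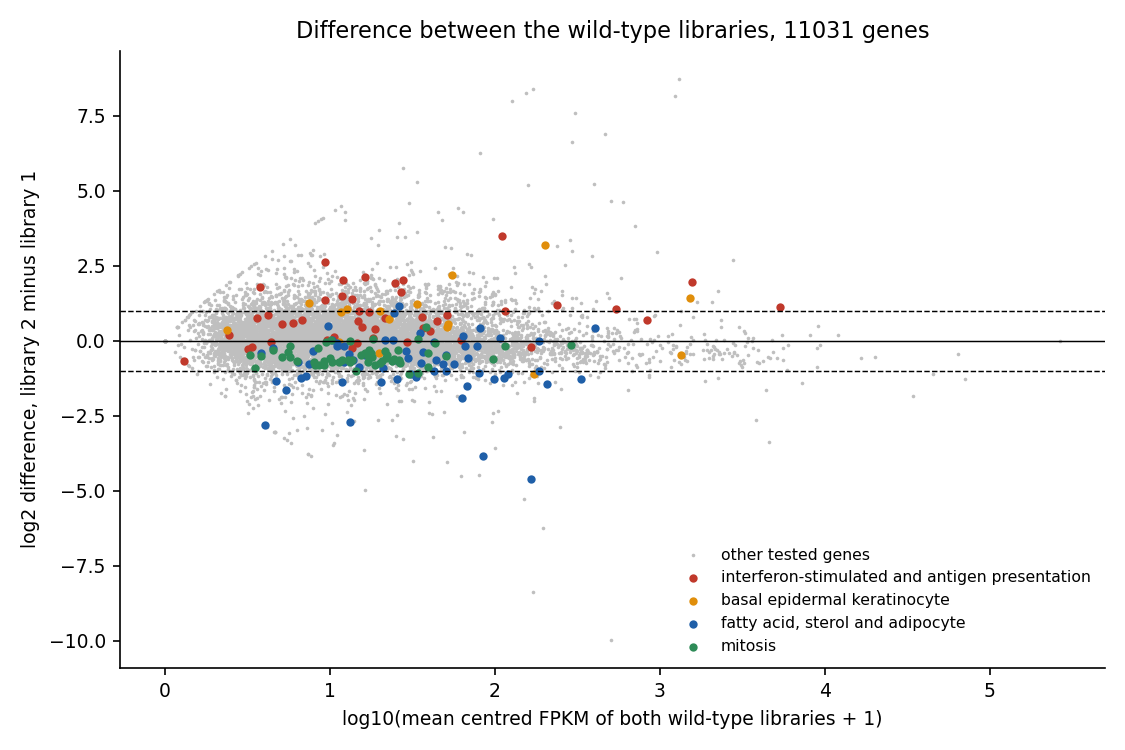
Difference between the wild-type libraries (vertical axis, log2, positive when higher in library 2) against the mean level of both (horizontal axis, log10 of centred FPKM + 1) for 11031 genes, with 4 groups of listed genes coloured and dashed lines at 2-fold. Interferon-stimulated and antigen presentation genes lie mostly above 0, and the lipid and mitosis genes mostly below.

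The labels name the dermal papilla as the source of every library and the feather follicle as the tissue. Epidermal genes were abundant in both pools. KRT14, a keratin of basal epidermal cells, lay at 827 centred FPKM in library 1 and 2222 in library 2, and SFN, the epithelial 14-3-3 sigma, at 1572 and 1119. EPCAM, an epithelial surface adhesion molecule, lay at 234 and 107. Genes known from the dermal papilla were present at lower levels, such as BMP4 at 67.7 and 181 and SFRP2 at 101 and 98.3. By these markers the pools held epidermis and mesenchyme together, and the results are described as those of whole follicle pools.

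Of 58 gene lists, 18 of cell types and 40 of processes, 11 were described as higher in library 2 and 7 as higher in library 1, by a median at least 0.5 from 0 with at least 2 of every 3 measured members on that side. The lists share some members, among them KRT14 and KRT15 in the lists of basal keratinocytes and of alpha keratins, and CTSS in those of macrophages and of antigen presentation. The counts below are to be read against 8.42% and 3.64% of all tested genes.

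**Figure D3:**
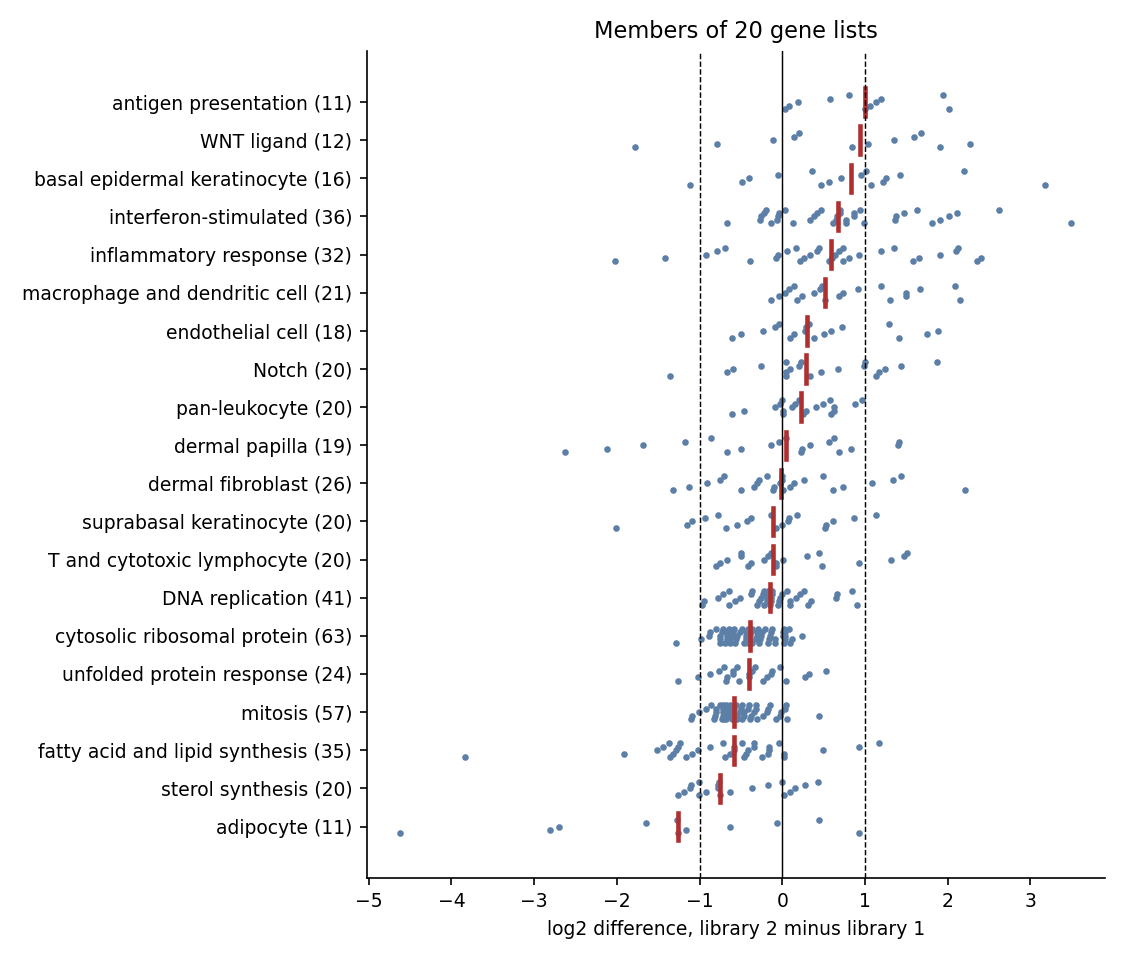
Difference of each measured member (points, log2, library 2 minus library 1) in 20 gene lists, with the number of measured members in parentheses, the median as a red bar and dashed lines at 2-fold. Medians run from 1.002 in antigen presentation to -1.26 in the adipocyte list. Pan-leukocyte lies at 0.23, and dermal fibroblast and dermal papilla lie close to 0.

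Genes of basal epidermal keratinocytes, the dividing cells attached to the basement membrane, were higher in library 2. Of 16 measured members of 18 in the table, 7 were at least 2-fold higher and 1 at least 2-fold lower, with a median of 0.84. KRT15, a keratin of basal and stem-like epidermal cells, lay at 39.2 centred FPKM in library 1 and 363 in library 2, a difference of 3.18. COL17A1, a hemidesmosome collagen, lay at 18.8 and 89.4, and KRT14 differed by 1.42. LAMB3, a chain of the laminin that anchors basal cells, lay at 7.18 and 16.2, and ITGB4, a subunit of its receptor, at 12.3 and 25.8. CDH3, the placental cadherin of basal cells, lay at 19.3 and 46.03 and TP63, the transcription factor of the basal layer, at 16.2 and 27.2. Against this direction, EPCAM differed by -1.11, SFN by -0.49 and the integrin ITGA6 by -0.40. The list's median lay between 0.64 and 1.09 under the 14 alternatives tried. Over all 5 measured alpha keratins, 3 were at least 2-fold higher, the third being KRT20 at 0.372 and 1.905. None was 2-fold lower, and 1 lay below 0, with a difference of -0.50.

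The 7 basal genes at least 2-fold higher in library 2 were above library 1 in every treated library. Library 1 was thus the low one of the 5 for them, but they were picked because library 1 lay below library 2. KRT15 lay at 321, 525 and 213 centred FPKM in the Wnt5a-labelled library and the knockdowns of lnc7831 and lnc3500, in that order, which is kept below. COL17A1 lay at 216, 245 and 138 and TP63 at 58.6, 40.3 and 51.04, all above both wild-type libraries. All 7 basal genes that were at least 2-fold higher in library 2 were nearer to library 2 than to library 1 in each treated library. So were 72.9%, 72.6% and 74.2% of all 929 higher genes. SFN, a member outside these 7, lay at 2215, 1649 and 1927 in the treated libraries and was lowest in library 2.

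The suprabasal list, genes of the cells above the basal layer, had a median of -0.11 over 20 members, which turned to 0.14 when scaled to the FPKM sum. Of the members 2-fold apart, 3 were lower in library 2 and 1 was higher. TGM3, a transglutaminase that crosslinks the cornified envelope, lay at 41.2 centred FPKM in library 1 and 9.48 in library 2. The tight junction gene CLDN1 and the membrane protease ST14 lay at 228 and 102 and at 35.7 and 16.2, both lower in library 2, although ST14 and CLDN1 fell short of 2-fold when scaled to the FPKM sum, while CLDN4 lay at 9.34 and 21.7. The desmosome genes JUP, DSP and PKP1, the most abundant members, differed by 0.17, -0.38 and -0.08. CSTA, a cysteine protease inhibitor of keratinocytes, was lower in library 2 at 8355 and 802 in the wild-type libraries. It lay at 1950.1, 1573 and 1732 in the treated ones, so that library 1 was the high one of the 5. CSTA was named because library 1 lay above library 2.

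Feather beta keratins, the structural proteins of the feather, were sparse under the names in the table, and 2 of 4 entries passed the filter. BKJ, a beta keratin, lay at 5.24 centred FPKM in library 1 and 122 in library 2 and at 58.2, 117 and 30.1 in the treated libraries. F-KER, another feather keratin, lay at 0.315 and 3.32. Beta keratin genes are near-identical copies of each other, so these values are uncertain.

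**Figure D4:**
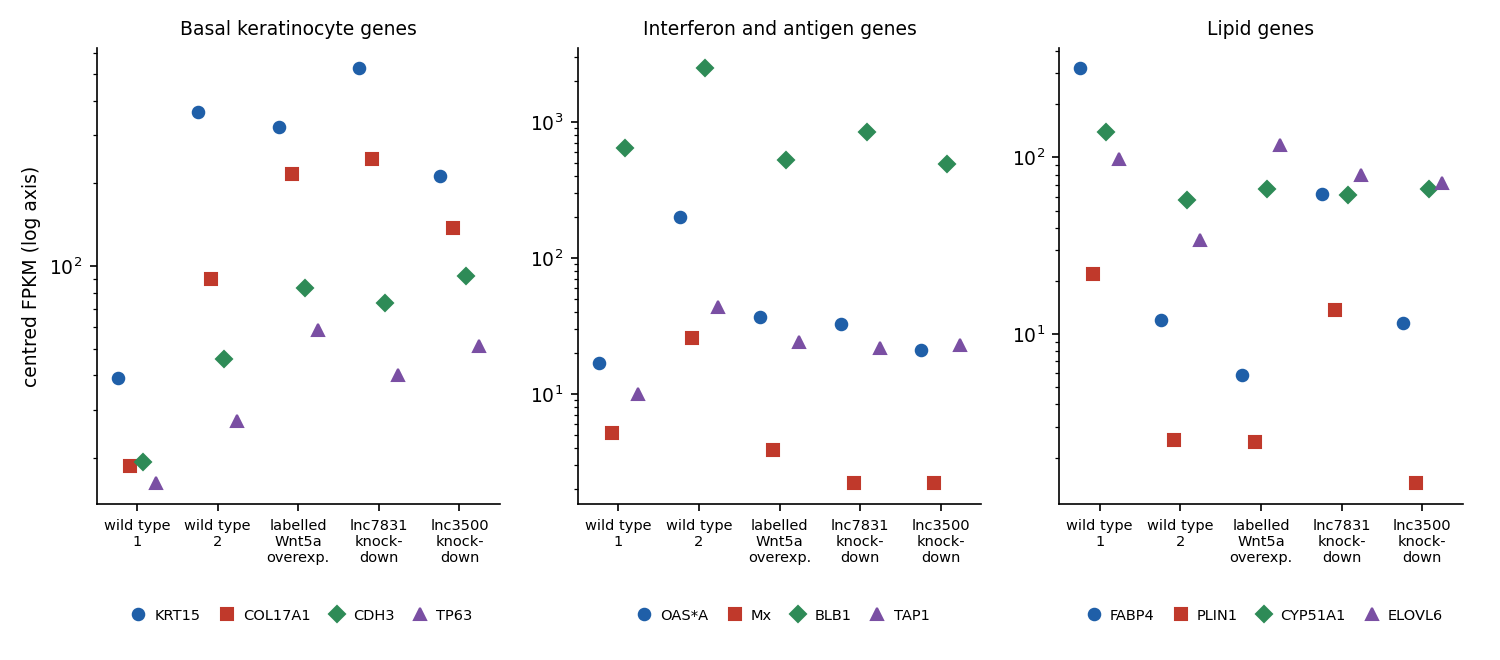
Centred FPKM (log axis) of 4 genes each of basal keratinocytes, of the interferon response and antigen presentation, and of lipid metabolism, as points in each of the 5 libraries. Library 1 is the lowest for the 4 basal genes shown. Library 2 is the highest for the interferon and antigen genes shown, and library 1 is the highest for FABP4, PLIN1 and CYP51A1. Most of these genes were named because the wild-type libraries differed in them.

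The list of dermal papilla genes had a median of 0.04 over 19 members, with 10 above 0 and 9 below. At 2-fold, 2 members were higher in library 2 and 4 were lower. CRABP-I, a retinoic acid binding protein, is written in the list under another spelling and was not counted. It was lower in library 2, at 387 and 4.11. BMP4, a bone morphogenetic protein, lay at 67.7 centred FPKM in library 1 and 181 in library 2, and WIF1, a secreted WNT inhibitor, at 2.63 and 8.61. Lower in library 2 were GREM1 and NOG, both secreted BMP antagonists, at 40.2 and 5.64 and at 3.35 and 0.349. CORIN, a protease that marks the dermal papilla in mouse hair follicles, lay at 4.24 and 0.202, and FGF7, a growth factor for keratinocytes, at 48.3 and 20.9. GREM1 lay at 8.93, 36.8 and 25.5 in the treated libraries, so that the lnc7831 knockdown was near library 1 and the Wnt5a-labelled library near library 2. The BMP ligand was thus higher and the antagonists GREM1 and NOG lower in library 2, whereas CHRD and CHRDL1, antagonists as well, lay at 8.19 and 19.02 and at 5.76 and 17.5 and were higher. NOG2, a second noggin gene, was also higher, at 9.24 and 88.2. Over all 31 measured BMP and TGF-beta genes the median was 0.09.

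Dermal fibroblast genes had a median of -0.02 over 26 members, with 4 at least 2-fold higher and 2 lower. TWIST1 and PRRX1, transcription factors of mesenchyme, lay at 17.7 centred FPKM in library 1 and 85.8 in library 2 and at 265 and 717. TNC, tenascin C, lay at 60.4 and 154 and THY1, a fibroblast surface protein, at 166 and 351. Lower in library 2 were col14A1, a fibril-associated collagen, at 15.1 and 5.43 and DPT, dermatopontin, at 73.5 and 33.1. The abundant matrix genes SPARC, COL1A2 and COL6A2 differed by -0.19, -0.34 and -0.12. Fibroblast genes therefore did not move as a block, and the sign of this small median turned under no centring and under scaling to the FPKM sum.

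Among 28 collagen genes 5 were at least 2-fold higher in library 2 and 4 lower. Those that were higher included COL17A1 and the basement membrane zone collagens COL7A1, the anchoring fibril collagen, at 2.56 centred FPKM in library 1 and 16.8 in library 2 and COL18A1 at 80.1 and 265. COL16A1 lay at 46.8 and 127. The lower ones, besides col14A1, were COL21A1 at 19.4 and 6.61, COL25A1 at 4.37 and 1.08 and COL28A1 at 4.88 and 1.87. In the matrix protease list, MMP7, matrilysin, stood out at 95.7 centred FPKM in library 1 and 4.84 in library 2, a difference of -4.05. MMP13, a collagenase, differed the other way at 73.9 and 189.

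Endothelial genes had a median of 0.30 over 18 members, 4 of them at least 2-fold higher in library 2 and none lower. These were cldn5, the endothelial claudin, at 26.9 centred FPKM in library 1 and 102 in library 2, the adhesion molecule ESAM at 22.05 and 76.7, the TGF-beta co-receptor ENG at 39.8 and 107 and VWF, von Willebrand factor, at 12.3 and 31.6. PECAM1, a general endothelial marker, differed by 0.27. LYVE1 and MMRN1, markers of lymphatic endothelium in mammals, lay at 13.7 and 9.42 and at 2.73 and 1.45, on the other side. Smooth muscle and pericyte genes had a median of 0.21 over 15 members, 9 of them higher in library 2 and 6 lower, with 1 at least 2-fold apart in each direction. The pericyte proteoglycan CSPG4 lay at 9.47 and 24.4 and TAGLN at 901 and 1774, while TPM1, a tropomyosin, lay at 516 and 236. TPM1 fell short of 2-fold when scaled to the FPKM sum, where TAGLN passed it.

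Markers of skeletal muscle, the tissue beside a dissected follicle, were mostly below the filter, with 5 of 18 measured and none at least 2-fold apart. Their summed level was 408 centred FPKM in library 1 and 261 in library 2, nearly all of it ACTA1, the muscle actin, at 389 and 234. The list's median of -0.59 rests on these 5 genes and was 0.071 for the 2 of at least 10 FPKM. It was less than 0.5 from 0, or above 0, under 7 of 14 alternatives. Of red blood cell genes 2 of 13 were measured, and the globin HBG2 lay at 16.8 and 13.5.

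Pigment cell genes split. SOX10, a transcription factor of neural crest cells that is also in the Schwann cell list, lay at 2.83 centred FPKM in library 1 and 11.2 in library 2, and MITF, the master regulator of melanocytes, at 14.3 and 25.98. The enzymes and melanosome genes of pigment synthesis were the other way, with TYRP1 at 4.004 and 0.2404, MLANA at 5.78 and 1.71 and TYR, tyrosinase, at 2.103 and 0.493. In the lnc7831 knockdown TYRP1, MLANA and TYR lay at 11.2, 8.39 and 2.34, above both wild-type libraries, and in the Wnt5a-labelled library they lay at 0.242, 0.489 and 0.0578. With a pseudocount of 5 in place of 1 none of the 3 was 2-fold apart. TYR passed the filter only through its levels in library 1 and the lnc7831 knockdown, so its direction was partly set by the filter.

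Genes of macrophages and dendritic cells were higher in library 2. Of 21 measured members, 19 were higher and 7 were at least 2-fold higher, with a median of 0.52 and a summed level of 449 centred FPKM in library 1 and 1005 in library 2. MPEG1, a pore-forming protein of phagocytes, lay at 20.8 centred FPKM in library 1 and 95.2 in library 2, and CD14, the endotoxin co-receptor, at 1.07 and 7.78. The complement genes C1QB and C1QA, made by tissue macrophages, lay at 37.8 and 122 and at 49.2 and 123. CTSS, a lysosomal protease, lay at 143 and 328, and HPGDS, a prostaglandin D synthase, at 1.83 and 6.996. The lineage genes differed less, with CSF1R, the macrophage growth factor receptor, at 19.6 and 27.9 and SPI1, a myeloid transcription factor, at 15.3 and 26.01. The median of the list dropped below 0.5 under 4 of the 14 alternatives, with 0.42 the lowest.

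In the treated libraries the 7 macrophage genes at least 2-fold higher in library 2 lay between the pools or above them. MPEG1 lay at 51.1, 52.9 and 39.9 and C1QA at 109, 109 and 74.7. All 7 genes were nearer to library 2 in the Wnt5a-labelled library and the lnc7831 knockdown, and 3 of 7 in the lnc3500 knockdown. Of all 929 higher genes, 72.9%, 72.6% and 74.2% were nearer to library 2 in the treated libraries. Library 1 was the low one of the 5 for the 7 macrophage genes, but they were picked because library 1 lay below library 2.

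Heterophils are the avian counterpart of neutrophils, and 6 of 13 listed entries were measured, with 4 at least 2-fold higher in library 2, 1 lower and a median of 1.71. CSF3R, the granulocyte growth factor receptor, lay at 1.15 centred FPKM in library 1 and 14.2 in library 2, LYG2, a goose-type lysozyme, at 0.876 and 12.5 and RSFR, a leukocyte ribonuclease, at 220.2 and 933. MMP9, a gelatinase of granulocytes that other cells make too, lay at 21.1 and 54.96. Outside the list, S100A12, a calcium-binding protein abundant in mammalian granulocytes, had one of the largest differences of all. It lay at 4.26 and 112 in the wild-type libraries and 13.6, 32.6 and 10.9 in the treated ones. GAL1, a beta-defensin of the list, went the other way, at 12.7 in library 1 and listed at 0 in library 2. It lay at 0.747, 0.545 and 0 in the treated libraries and passed the filter only through library 1, so its direction was set by the filter. GAL6, a beta-defensin outside the list, was also lower in library 2 and is described at the end. Over the whole list of 13 entries with no filter the median was 0.24.

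Other leukocyte lists did not meet the rule for either library. The pan-leukocyte list leaned slightly to library 2, with 15 of 20 members higher, 5 lower and a median of 0.23. None of its members was 2-fold apart. Under the 14 alternatives its median lay between 0.17 and 0.48. Its summed level was 493 centred FPKM in library 1 and 653 in library 2. Of 20 measured T cell genes CD5, RUNX3 and CD40LG were at least 2-fold higher in library 2, with CD40LG, the helper T cell ligand, at 2.16 centred FPKM in library 1 and 6.86 in library 2. The T cell receptor genes CD3D and CD3E differed by -0.18 and -0.42, and the cytotoxic genes CD8A and GZMA, granzyme A, by -0.81 and -0.75. GZMM, granzyme M, went the other way, with a difference of 0.93. Over the T cell list 8 members were higher in library 2 and 12 lower, with a median of -0.11. Of 9 B cell genes CD40 and BTK were at least 2-fold higher, at 8.68 and 21.5 and at 4.99 and 11.4. IGJ, the joining chain of secreted antibodies, lay at 120.5 and 87.6 in the wild-type libraries and at 7.39, 16.2 and 18.4 in the treated ones, all below both pools.

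Interferon-stimulated genes, induced by antiviral signalling, were higher in library 2. Of 36 measured members 27 were higher, 10 at least 2-fold, and none was 2-fold lower, with a median of 0.68. OAS*A, an RNA-sensing synthetase, lay at 16.9 centred FPKM in library 1 and 200.4 in library 2, a difference of 3.49. Mx, an antiviral GTPase, lay at 5.14 and 25.6, RSAD2, viperin, at 0.675 and 4.86 and the nucleotide kinase CMPK2 at 5.21 and 16.3. The transcription factor IRF10 lay at 3.73 and 18.1, the RNA helicase MOV10 at 9.39 and 38.1 and CCL19, a chemokine of dendritic cells and lymphocytes, at 1.598 and 14.99. With a pseudocount of 5 the median of the list was 0.43.

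For the 10 interferon-stimulated genes at least 2-fold higher in library 2, library 2 was the high one of the 5, but they were picked because library 2 lay above library 1. OAS*A lay at 36.7, 32.8 and 20.9 in the treated libraries, Mx at 3.84, 2.19 and 2.21 and CCL19 at 1.53, 1.198 and 1.41. Of the 10 genes, 9 were nearer to library 1 in the Wnt5a-labelled library and 8 in each knockdown. Of all 929 higher genes, 252, 255 and 240 were nearer to library 1 in the treated libraries. UBA7, the activating enzyme for ISG15, was an exception at 12.2 and 39.6 in the wild-type libraries and 38.2, 35.1 and 38.8 in the treated ones. The 7 macrophage genes that were 2-fold apart were above library 1 in each of the other 4 libraries, and their part in the interferon values was not tested.

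All 11 measured genes of antigen presentation were higher in library 2, 6 of them at least 2-fold, with a median of 1.002. TAP1, a peptide transporter, lay at 10.04 centred FPKM in library 1 and 43.5 in library 2 and BLB1, an MHC class II beta chain, at 644 and 2485. B2M, the light chain of MHC class I, lay at 3365 and 7369.8, and BF1, a class I heavy chain, at 348 and 728. In the treated libraries BLB1 lay at 528, 845 and 494 and BF1 at 181, 238 and 161, so that library 2 was again the highest of the 5. Both were picked from the genes at least 2-fold higher in library 2. MHC genes have near-identical copies, so the split between BF1, BLB1 and their paralogs is uncertain.

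**Figure D5:**
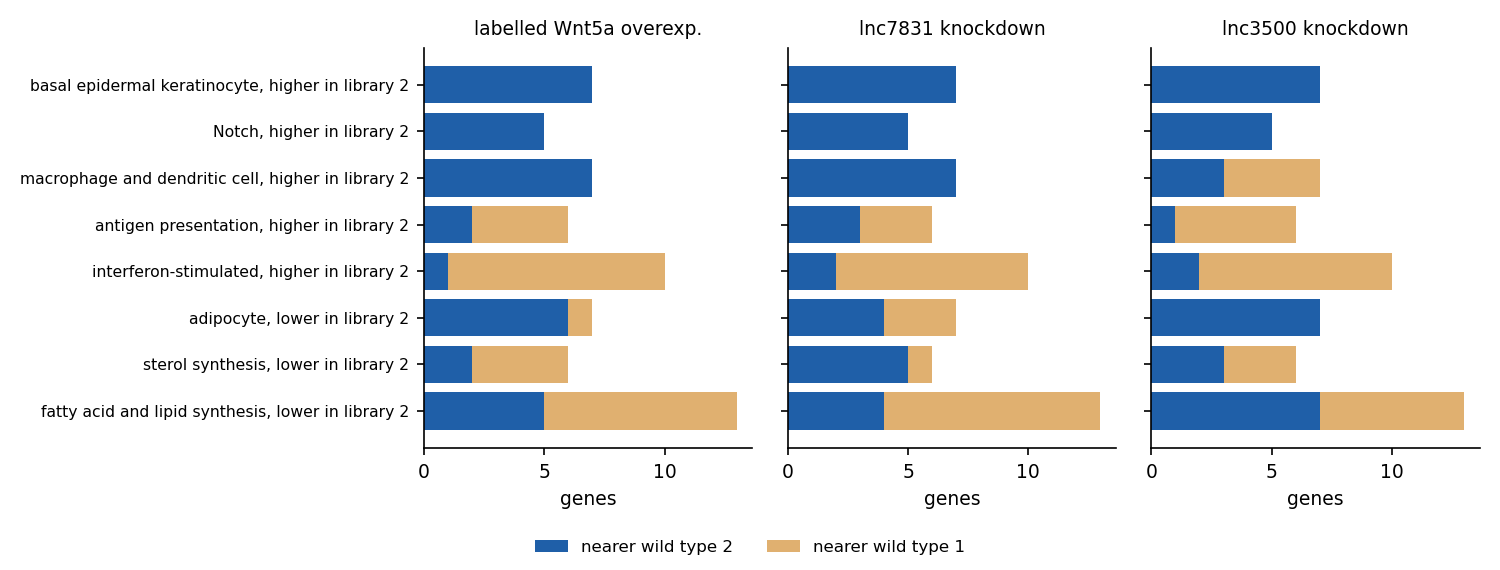
For genes at least 2-fold apart between the wild-type libraries in 8 lists, the number (horizontal axis) for which each treated library lay nearer to wild-type library 2 (blue) or to library 1 (tan). Basal keratinocyte and Notch genes are all nearer to library 2, while 8 or 9 of 10 interferon-stimulated genes are nearer to library 1. Of all 929 higher genes 72.6% to 74.2% are nearer to library 2, and of all 402 lower genes 48.5% to 60.2%.

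Genes of the inflammatory response had a median of 0.59 over 32 members, with 9 at least 2-fold higher in library 2 and 2 lower. IL8, a granulocyte chemokine, lay at 0.297 centred FPKM in library 1 and 5.85 in library 2. It is counted among the 9 but passed the filter only through library 2, so its direction was set by the filter. Feedback genes of cytokine signalling were among the higher ones, with SOCS3 at 37.7 and 166, CISH at 9.09 and 50.4 and the decoy receptor IL1R2 at 0.979 and 7.64. The transcription factors NFKB2, CEBPB and STAT3 lay at 10.6 and 42.7, 122 and 387 and 63.8 and 164. PLAU, urokinase, was lower at 34.6 and 12.4. The chemokine CCL4 has 2 entries, which lay at 42.1 and 9.63 and at 12.7 and 20.3 and so differed in opposite directions. In the treated libraries IL8 lay at 0.334, 0.352 and 0.152, near library 1, and CISH at 85.9, 59.7 and 89.5, above both. The list's median fell to 0.39 with a pseudocount of 5 and to 0.44 among genes of at least 10 FPKM.

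Immediate early genes, which respond to handling and growth factors within minutes, did not lean to one side, with a median of 0.20 and 3 of 28 higher and 4 lower at 2-fold. FOS lay at 195 centred FPKM in library 1 and 471 in library 2 and IER5 at 157 and 427, while DUSP1, ATF3 and CYR61 lay at 105 and 44.9, 33.95 and 14.02 and 216 and 82.4.

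Among WNT ligands, 6 of 12 measured genes were at least 2-fold higher in library 2 and 1 was lower, with a median of 0.94. WNT4 lay at 24.2 centred FPKM in library 1 and 120.0 in library 2, Wnt6 at 13.2 and 44.2, Wnt10a at 4.41 and 15.3 and Wnt3a at 0.984 and 6.45, all ligands made in skin epithelium or dermis. WNT5A, a ligand of the non-canonical branch, differed by 1.04, just past 2-fold, and fell short of it with a pseudocount of 5 or the upper quartile as scale. WNT2B was lower, at 17.9 and 4.49. The median was 0.21 when the 4 ligands below the filter were counted too.

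Among receptors and secreted antagonists of WNT, 7 of 26 were at least 2-fold higher in library 2 and none lower, but the list's median was 0.20 and 10 members lay below 0. The 7 included the Frizzled receptors FZD2 and FZD1, at 13.2 centred FPKM in library 1 and 43.9 in library 2 and at 35.8 and 90.3, the co-receptor PTK7 at 55.2 and 137, and the extracellular inhibitors NOTUM, SFRP4 and FRZB at 9.997 and 32.5, 69.9 and 181 and 97.8 and 199.9. Among the other secreted inhibitors, some were not 2-fold apart, with SFRP1 differing by 0.19, SFRP2 by -0.04, DKK2 by -0.03, DKK3 by 0.12 and SOSTDC1 by -0.72. Of 14 beta-catenin targets and feedback genes only SP5, a direct target, was 2-fold apart, at 1.63 and 15.1. AXIN2, a feedback inhibitor, differed by 0.88 and the stem cell receptor LGR5 by -0.77.

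Of 20 Notch pathway genes 5 were at least 2-fold higher in library 2 and 1 lower, with a median of 0.28. The higher ones were targets and modulators, namely HEYL at 4.49 centred FPKM in library 1 and 19.1 in library 2, HES1 at 4.18 and 10.4, NRARP at 37.5 and 90.3, the ubiquitin ligase DTX4 at 6.93 and 20.5 and LFNG, which modifies the receptor, at 31.5 and 72.1. DLK1, a non-canonical ligand, was lower at 4.04 and 0.9598. In the treated libraries NRARP lay at 167, 223 and 194, and all 5 higher genes were nearer to library 2 in each of them. The share over all 929 higher genes was 72.9%, 72.6% and 74.2%.

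In the Hedgehog list 3 of 13 genes were at least 2-fold higher, with a median of 0.55. Among them were the co-receptors GAS1 at 0.203 centred FPKM in library 1 and 10.1 in library 2 and CDON at 7.17 and 18.4. SHH, the ligand of the barb ridges, differed by 0.80, and SUFU, an intracellular inhibitor, was lower at 70.1 and 27.7. The median was 0.36 with a pseudocount of 5 and 0.24 without the filter.

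FGF genes had a median of 0.25 over 20 members, with 3 higher and 3 lower. The feedback inhibitor SPRY3 lay at 5.41 centred FPKM in library 1 and 28.2 in library 2, FGF22 at 2.596 and 8.44 and FGFR4 at 3.39 and 10.4. FGF7, Fgf9 and the carrier FGFBP1 were lower, with FGFBP1 at 189 and 72.8. Fgf9 lay at 4.74 and 0.513, and at 0.536, 0.377 and 0.802 in the treated libraries. It passed the filter only through library 1, so its direction was set by the filter. Of 13 measured retinoic acid genes 3 were at least 2-fold higher and 2 lower, with a median of 0.10. Higher were, among others, the synthesis enzyme ALDH1A2 at 0.617 and 3.604 and the receptor RXRG at 1.31 and 4.44. The retinol-binding protein RBP7 and retinol receptor STRA6 were lower, at 10.8 and 1.81 and at 4.34 and 0.501. CRABP-I was not counted in this list. CRABP-I, a cellular retinoic acid binding protein, had the largest lower difference among named genes above 0 in all 5 libraries, at 387 and 4.11 in the wild-type libraries and 19.5, 87.1 and 42.00 in the treated ones.

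Of 31 patterning transcription factors, which give embryonic tissues their position and identity, 8 were at least 2-fold higher in library 2 and 1 lower. FOXD1 lay at 10.4 centred FPKM in library 1 and 95.5 in library 2, SHOX2, a limb factor, at 5.74 and 17.2 and IRX4 at 0.386 and 6.07, while EYA2 was lower at 5.82 and 0.745. HOX genes had a median of -0.01 over 24 entries. HOXD9 lay at 10.1 and 24.3. HOXA11-AS1_4, which has 3 entries with the same values, lay at 7.21 in library 1. It was listed at 0 in library 2 and in every treated library. It thus passed the filter only through library 1, and its direction was set by the filter.

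Adipocyte genes were the cell type markers furthest on the side of library 1. Of 11 measured members 7 were at least 2-fold lower in library 2 and none higher, with a median of -1.26. FABP4, a fatty acid carrier of fat cells, lay at 318 centred FPKM in library 1 and 12.02 in library 2, a difference of -4.62, and PLIN1, the coat protein of lipid droplets, at 21.8 and 2.51. CIDEC and CIDEA, lipid droplet proteins, lay at 6.02 in library 1 and listed at 0 in library 2, and at 7.19 and 1.62. CIDEC lay at 0, 0.517 and 0.608 in the treated libraries. It is counted among the 7 but passed the filter only through library 1, so its direction was set by the filter. The fat cell hormone ADIPOQ did not follow, at 342 and 464, nor did AGPAT2, an enzyme of lipid synthesis, at 15.8 and 31.1. The summed level of the list was 1238 centred FPKM in library 1 and 740 in library 2. Among the 6 members of at least 10 FPKM the median was -0.34.

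FABP4 lay at 5.84, 61.9 and 11.5 in the treated libraries and PLIN1 at 2.46, 13.7 and 1.43. All 7 genes were nearer to library 2 in the lnc3500 knockdown, 6 in the Wnt5a-labelled library and 4 in the lnc7831 knockdown. The shares over all 402 lower genes were 58.7%, 60.2% and 48.5% in these libraries. Library 1 was the highest of the 5 for FABP4 and PLIN1, with the lnc7831 knockdown next, but both were picked because library 1 lay above library 2.

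Genes of fatty acid and lipid synthesis, an activity of both fat cells and cornifying epidermis, were lower in library 2 in 30 of 35 members, 13 of them at least 2-fold, with a median of -0.59. That median lay between -0.65 and -0.34 under the 14 alternatives, and the list no longer met the rule under 2 of them. The list shares GPAM, DGAT2 and AGPAT2 with the adipocyte list. CERS3, the ceramide synthase of the skin barrier, lay at 99.2 centred FPKM in library 1 and 25.5 in library 2, and the elongases ELOVL6 and ELOVL4 at 98.5 and 33.9 and at 159 and 66.9. THRSP, a lipogenic protein with 2 entries, lay at 156 and 9.98 in one and at 303 and 111 in the other. In the treated libraries the first entry lay at 0.452, 48.9 and 1.58 and the second at 355, 561 and 297. FADS6 was the 1 gene 2-fold higher, at 15.02 and 35.1. In the treated libraries ELOVL6 lay at 117, 79.1 and 71.7 and CERS3 at 60.1, 41.5 and 45.8. Of the 13 genes 5, 4 and 7 were nearer to library 2, against 60.2%, 48.5% and 58.7% of all 402 lower genes. Library 2 was therefore the low one for part of this list. The part of fat cells in these values was not tested.

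Enzymes of sterol synthesis had a median of -0.76 over 20 members, with 6 at least 2-fold lower in library 2 and none higher. CYP51A1, which demethylates lanosterol, lay at 138 centred FPKM in library 1 and 57.1 in library 2, and DHCR7, a late step, at 41.4 and 18.6. MSMO1 and FDPS lay at 163 and 75.4 and at 246 and 122. DHCR7 and MSMO1 fell short of 2-fold when scaled to the FPKM sum, where the list's median was -0.51. CYP51A1 lay at 66.2, 61.1 and 66.4 in the treated libraries, close to library 2. Of the 6 genes 2, 5 and 3 were nearer to library 2 than to library 1, against 60.2%, 48.5% and 58.7% of all 402 lower genes.

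Mitosis genes were lower in library 2 in 53 of 57 members, by little each, with a median of -0.59 and 3 at least 2-fold lower. CDC20, an activator of the anaphase ligase, lay at 39.9 centred FPKM in library 1 and 18.1 in library 2, PTTG1, securin, at 45.3 and 20.8 and cyclin A2, CCNA2, at 18.1 and 8.53. Scaled to the FPKM sum the median was -0.35 and none of the 3 was 2-fold apart. DNA replication genes did not follow to the same size, with a median of -0.15 over 41 members that turned to 0.07 when scaled to the FPKM sum. In it TYMS and CDC45 differed by -0.97 and -0.94, and the licensing factors CDT1 and CDC6 by 0.90 and 0.85. CDKN2B, a cell cycle inhibitor, was listed at 0 in library 1 and lay at 2.93 in library 2. The mitosis genes were thus lower in the pool whose basal keratinocyte genes were higher.

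Heat shock genes, which encode chaperones, had a median of -0.51 over 25 members, with 2 at least 2-fold lower in library 2 and 1 higher. That median was -0.26 when scaled to the FPKM sum. The unfolded protein response list had a median of -0.40 over 24 members, with 2 at least 2-fold lower and none higher. Its median lay between -0.46 and -0.15 under the 14 alternatives. HSPB7, a small heat shock protein of muscle, lay at 91.3 centred FPKM in library 1 and 24.6 in library 2 and HSPA4L at 111 and 45.6, while CRYAB, another small heat shock protein, was higher at 3.03 and 11.1. The endoplasmic reticulum genes CRELD2 and HSP90B1 lay at 60.5 and 24.7 and at 409 and 202. Of the amino acid response list, STC2, CHAC1 and SESN2 stood apart as higher. CHAC1, which breaks down glutathione, lay at 4.004 and 61.3, and STC2, stanniocalcin 2, at 0.435 and 22.2, while the median of the list was -0.39.

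Ribosomal protein genes were lower in library 2 in 52 of 63 members, with a median of -0.40 and 1, RPL36, at least 2-fold lower, at 100020.0 centred FPKM in library 1 and 40935 in library 2. The ribosomal median lay between -0.46 and -0.14 under the 14 alternatives. The nuclear genes of the respiratory chain had a median of -0.25, which was 0.00 when scaled to the FPKM sum, and UQCR10 lay at 969 and 312. The metallothioneins MT1 and MT4, small metal-binding proteins, were lower at 53568 and 14847 and at 6635 and 2134. RPL36, MT1 and ATP8, a mitochondrial gene at 61904 and 28717, are among the 10 most abundant genes, so they weigh on the FPKM sum.

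Beyond the lists, the genes with the largest differences held secreted and metabolic products. Higher in library 2 were SPINK2, a protease inhibitor, at 0.651 centred FPKM in library 1 and 64.5 in library 2, AVP, the vasopressin-type hormone precursor, at 3.37 and 85.1, and RASL11A, a small GTPase, at 4.53 and 88.3. IGFBP4, which binds insulin-like growth factors, was the most abundant of them at 219.6 and 1699, with 864, 880.0 and 919 in the treated libraries. STC1, PNOC, the nociceptin precursor, and ADAMTSL2 and OLFML2B, matrix proteins, lay at 3.24 and 45.4, 2.87 and 34.2, 16.4 and 125 and 45.6 and 276. Lower in library 2 were WFIKKN2, a binding protein of growth and differentiation factors, at 291 and 6.46 and EGFL6, a matrix protein known from mouse hair follicles, at 28.5 and 1.39. SRD5A2, a steroid reductase, lay at 184 and 14.3, and Pomc, the precursor of melanocortin hormones, at 44.5 and 4.01. TF, the iron carrier transferrin, and CA2, carbonic anhydrase 2, lay at 436 and 58.3 and at 166 and 24.6. PTN, pleiotrophin, CPZ, a carboxypeptidase, and SLC16A9, a transporter, lay at 42.2 and 6.71, 49.3 and 4.24 and 68.6 and 11.9.

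For the genes with the largest lower differences, the treated libraries did not line up in one way. WFIKKN2 lay at 23.5, 57.1 and 39.4 in them and TF at 24.2, 53.7 and 44.3, both far below library 1. SRD5A2 lay at 68.7, 399 and 154, with the lnc7831 knockdown above library 1, and Pomc at 1.002, 166 and 2.15, with the lnc7831 knockdown above library 1 and the others below library 2. EGFL6 lay at 3.63, 28.3 and 6.71, with the lnc7831 knockdown at the level of library 1.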

How the data were processed

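The authors deposited a table of FPKM with a column for each library. Cufflinks 2.2.1, TopHat2 2.1.0 and the build galGal4 are named in the submitters' processing notes. Scaling between libraries, strand and the handling of multiply mapped reads are not given in the sources used here. Columns were matched to libraries by title, and genes carry the table's own names, with no coordinates.

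With Python 3.11.15, pandas 2.3.3 and numpy 2.4.6, a geometric mean over the 5 columns was taken for genes above 0 in all of them, and each column was divided by its median ratio to it. Differences were taken on log2(centred FPKM + 1), with genes of a mean of at least 1 FPKM kept. No test was made, because 1 library was compared with 1. The counting step was tested on simulated data with little noise, in which genes of at least 10 FPKM were changed by well over 2-fold. That test does not cover weaker genes or differences near 2-fold. Alternatives changed the scaling, the pseudocount, the filter and the treatment of genes listed at 0.

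The comparison, the gene lists and the rules were chosen with earlier results of these data known, so no list is independent support. COL4A3BP, KRTCAP3, CLDND1 and SLC2A4RG were taken out of lists by name because they are not members of the family. Genes named by rule were ACTB, GAPDH and WNT5A, the 15 largest differences in each direction among named genes above 0 in all 5 libraries with a wild-type mean of at least 10 FPKM, up to 4 members of each list with the largest difference at 2-fold, the 3 most abundant members of each cell type list, and the 10 most abundant genes. Some genes that the rule picks are not reported here. Other genes in the text were chosen after their values were seen. Genes with near-identical copies are uncertain. Depth is unknown, so no counting interval is given.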

Additional observations from a re-analysis of the deposited data

How the results depend on the processing

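The difference rests on 1 library on each side, so leaving out either leaves no comparison, and no alternative measures the spread between wild-type pools. No paired analysis was possible because the comparison is between the 2 replicates of one group. The count of genes at least 2-fold higher in library 2 was 929 and that of lower genes 402. Scaling to the FPKM sum gave 1464 and 265, a pseudocount of 5 gave 463 and 199, and a mean of at least 10 FPKM gave 594 and 217. The other alternatives, among them no centring with 961 and 337, kept both counts within 1.5 times. Of 18 lists with a median at least 0.5 from 0, 1 changed sign under an alternative: skeletal muscle, at 0.071 for the 2 members of at least 10 FPKM. Its median was nearer to 0 than 0.5 under 6 more of the 14 alternatives, that of claudins under 8 and those of heat shock and of macrophages and dendritic cells under 4 each. Of the other 40 lists, 17 changed sign under at least 1 alternative. Of the values of genes named by rule, 2816 stayed on their side of 2-fold, 70 no longer reached it and 9 newly did. The unknown depth limits the weakly expressed genes most.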

Other observations

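Genes that the table lists without a name of their own differed more often between the pools than named ones. Of 1133 such genes tested, 192 (16.9%) were at least 2-fold higher in library 2 and 77 (6.80%) lower, against 737 (7.45%) and 325 (3.28%) of 9898 named genes. Of the 20 largest differences in each direction they made up 15 on the higher side and 7 on the lower. ENSGALG00000028374 lay at 5.12 centred FPKM in library 1 and 2612 in library 2, and at 6088, 302 and 5205 in the Wnt5a-labelled library and the knockdowns of lnc7831 and lnc3500. ENSGALG00000027475 lay at 7.54 and 2452 in the pools and at 4128, 75.9 and 2965 in the treated libraries. On the other side ENSGALG00000026527 lay at 119 and 4.295 and ENSGALG00000025985 at 59.2 and 2.73. No name or role is given to these identifiers here.

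Of 163 measured solute carriers, membrane transporters for small molecules, 10 were at least 2-fold higher in library 2 and 8 lower, close to the share of all tested genes. SLC35E4 lay at 0.876 centred FPKM in library 1 and 12.8 in library 2, SLC8B1 at 12.3 and 32.8 and SLC4A2, an anion exchanger, at 12.5 and 32.5, while SLC39A10, a zinc importer, lay at 26.9 and 9.16. In the hypoxia list ADM, adrenomedullin, and CA9, a carbonic anhydrase, were higher in library 2 at 12.6 and 34.7 and at 37.3 and 96.9, and ANGPTL4 and ERO1L were lower at 7.84 and 2.42 and at 51.2 and 20.8. Proteasome genes stayed within 2-fold in all 29 members, with a median of -0.28 that lay between -0.34 and -0.02 under the 14 alternatives.

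ISG12(2), an interferon-inducible gene outside the list used above and chosen after its values were seen, lay at 72.6 centred FPKM in library 1 and 325 in library 2 and at 81.9, 37.7 and 18.05 in the treated libraries. GAL6, another beta-defensin, lay at 30.8 in library 1 and was listed at 0 in the other 4 libraries, so it passed the filter only through library 1. Library 1 alone of the pools had 48 tested genes listed at 0, library 2 alone had 30, and 21 were at 0 in both.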
